A study of Mus musculus with 11 samples.

Results

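The comparison set all tumours given OPG-Fc against all tumours not given it, in a series of 11 tumours grown from 4T1 cells. The 6 tumours with OPG-Fc were 3 given OPG-Fc alone and 3 given OPG-Fc with palbociclib, and the 5 without it were 2 given vehicle and 3 given palbociclib alone, so that all 11 samples of the series took part. Of the 17181 genes in the deposited table, 13074 had a value of at least 1 FPKM (fragments counted per length of transcript and scaled to the library) in at least 2 libraries and were tested. Weight was put on the genes whose 6 OPG-Fc values were all above or all below the 5 others, which were 101 genes. This set was defined by the values themselves, so its values are given as a description.

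The 4T1 line comes from a mouse mammary carcinoma, is labelled wild type and serves as a triple-negative breast cancer model, and all 4 groups carried it. Cells in Matrigel were injected subcutaneously on both sides, and treatment began at a tumour volume of about 100 mm3 and lasted 12 days. OPG-Fc was injected at 10 mg/kg 3 times a week, palbociclib was given by mouth at 30 mg/kg each day, the combination received both, and vehicle was sodium lactate with corn oil and DMSO. The sample titles call the vehicle tumours untreated, whereas their treatment label names the vehicle. The hosts are named as NSG mice, a strain that lacks T, B and NK cells and still has macrophages and granulocytes, whereas the title of the series calls the model syngeneic. The age and sex of the mice are not given in the sources used here, and neither is which tumours shared an animal, so the p-values reflect the spread among these tumours alone, which may be technical in part. OPG-Fc replicates 2 and 3 share a first number in their column names, as do combination replicates 1 and 2, and its meaning is not given.

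RANK is a receptor of the tumour necrosis factor family, and RANKL is its ligand. Signalling through RANK recruits TRAF adaptors and activates NF-kB, and it is known for driving osteoclast formation and for the growth of mammary epithelium in response to progesterone. Osteoprotegerin (OPG) is a secreted decoy receptor that binds RANKL, and OPG-Fc is OPG fused to an antibody Fc part. Palbociclib inhibits CDK4 and CDK6, kinases that phosphorylate RB at the entry into S phase.

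Over all 11 tumours no gene passed the test. By the median log2 difference of their members, macrophage markers, Fc and CD300 receptors, fibroblast matrix genes and mitosis genes lay higher in the tumours given OPG-Fc. These lists were not the highest by that measure. Medians larger than all of theirs over the 11 tumours were those of skeletal muscle (1.28), adipocyte (1.08) and erythroid markers (0.66). Small leucine-rich proteoglycans (0.60), secreted Wnt antagonists (0.59), neutrophil markers (0.52) and epithelial genes (0.50) also lay above mitosis genes (0.38). Without vehicle replicate 2, the Wnt antagonists (-0.09) and epithelial genes (-0.36) lay below 0. The median FPKM of the fibroblast and mitosis lists overlapped between the groups. Bcl2l11 had the widest gap among the genes that lay lower. The 101 genes with no overlap were 0.773% of the genes tested, with 83 higher (0.635%) and 18 lower (0.138%) in the OPG-Fc tumours. In an additive limma fit with palbociclib as the second factor, 0 of 13074 genes passed an adjusted p of 0.05 (0%), the smallest adjusted p was 0.149, and 1337 genes (10.2%) had an unadjusted p under 0.05. Without vehicle replicate 2, 520 genes (3.98%) passed, of which 455 (3.48%) rose and 65 (0.497%) fell with OPG-Fc. In that fit vehicle is a single tumour, whose spread is taken to equal that of the other groups. There 724 genes (5.54%) had no overlap, 582 higher (4.45%) and 142 lower (1.09%). The share of passing genes that were higher was 87.5%, and it was 71.9% after quantile normalization and 74.8% after median-of-ratios scaling of the libraries.

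Vehicle replicate 2 stood apart from the other 10 tumours, and counts and list medians are therefore given with and without it. A gene is said to rise or fall only where it passed without that library, and no gene passed with it. The shares over all genes tested, 3.48% that rose and 0.497% that fell, belong beside every list count below. The median FPKM of 19 epithelial and luminal genes was 1.89 in that library and 30.3 to 67.9 in the others, so the labelled epithelial cell type was weakly represented there. The median of 12 B cell and plasma cell markers was 164 in vehicle replicate 2, 12.4 in OPG-Fc replicate 2 and at most 0.505 in the other 9, and the T and NK cell markers had a median of 60.3 in vehicle replicate 2. Skin markers had a median of 21.0 and 11.2 FPKM in palbociclib replicates 1 and 3, and at most 4.14 in the other 9. The part of these differences in the results was not tested. Without vehicle replicate 2, no gene passed when palbociclib replicates 1 and 3 or vehicle replicate 1 were also left out, which holds for every list count below. In bulk tissue, fewer cells of a type and less RNA per cell cannot be told apart.

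Promoters are shown for 5 of the genes with no overlap. These are Tmem37, with the widest gap between the groups, 3 myeloid receptors higher with OPG-Fc, and Bcl2l11, with the widest gap among the lower genes. Dpep2, with the next widest gap after Tmem37, has no promoter in the reference used. Each line holds the 250 bases before the first listed start in RefSeq (GRCm38.p6), read in the direction of the gene. Capitals mark matches, on either strand, to GGG and CC with any 5 bases between them (an NF-kB type motif), TGANTCA (AP-1 type) or GAGGAAGT (PU.1 type), and overlapping matches run together. The windows are chr1:120073781-120074030 on the minus strand for Tmem37, chr11:114989887-114990136 on the minus strand for Cd300ld, chr17:48346151-48346400 on the plus strand for Trem2, chr1:171059404-171059653 on the minus strand for Fcgr3, and chr2:128125788-128126037 on the plus strand for Bcl2l11.
Tmem37 promoter: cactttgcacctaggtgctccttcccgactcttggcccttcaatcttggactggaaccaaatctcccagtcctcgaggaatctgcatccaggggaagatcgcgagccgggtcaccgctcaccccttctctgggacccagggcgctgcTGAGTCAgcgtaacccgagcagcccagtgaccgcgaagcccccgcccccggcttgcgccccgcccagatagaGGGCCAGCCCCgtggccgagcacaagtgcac
Cd300ld promoter: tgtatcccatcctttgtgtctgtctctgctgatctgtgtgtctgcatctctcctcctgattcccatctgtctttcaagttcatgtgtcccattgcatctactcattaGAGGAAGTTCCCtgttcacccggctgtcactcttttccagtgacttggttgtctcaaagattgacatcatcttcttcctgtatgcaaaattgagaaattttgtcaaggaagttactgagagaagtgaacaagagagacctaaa
Trem2 promoter: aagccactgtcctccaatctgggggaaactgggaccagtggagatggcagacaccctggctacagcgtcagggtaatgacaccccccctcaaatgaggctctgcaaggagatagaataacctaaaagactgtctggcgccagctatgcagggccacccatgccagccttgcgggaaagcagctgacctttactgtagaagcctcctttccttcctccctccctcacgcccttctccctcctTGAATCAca
Fcgr3 promoter: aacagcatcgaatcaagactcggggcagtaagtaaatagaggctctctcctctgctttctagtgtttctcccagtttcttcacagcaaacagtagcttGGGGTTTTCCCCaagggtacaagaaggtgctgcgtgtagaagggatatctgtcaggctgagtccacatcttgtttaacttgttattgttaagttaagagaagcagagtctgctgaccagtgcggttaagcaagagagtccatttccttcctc
Bcl2l11 promoter: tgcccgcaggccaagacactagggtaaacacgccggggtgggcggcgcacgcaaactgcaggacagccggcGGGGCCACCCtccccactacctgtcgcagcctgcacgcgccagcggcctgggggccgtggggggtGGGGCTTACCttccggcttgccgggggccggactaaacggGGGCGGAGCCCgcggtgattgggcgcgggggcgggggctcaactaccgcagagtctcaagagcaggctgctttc

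Of the genes tested, 10383 had a promoter in this reference, and 61.2% of these held the NF-kB type motif, 4.77% the AP-1 type and 2.56% the PU.1 type. Among the higher genes with no overlap, 71 of 83 had a promoter, and the shares were 63.4%, 9.86% and 2.82%. Among the lower ones, 15 of 18 had a promoter, with shares of 66.7%, 0% and 13.3%. These are matches of letters and were not tested. The Tmem37 window holds both the AP-1 type and the NF-kB type, Cd300ld the PU.1 type overlapping the NF-kB type, Trem2 the AP-1 type, and Fcgr3 and Bcl2l11 the NF-kB type.

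The gap is the distance on the log2(FPKM + 1) scale between the lowest tumour of the higher group and the highest tumour of the other. Tmem37, which encodes a membrane protein related to calcium channel gamma subunits, had the widest gap, at 0.49. Its FPKM was 13.4, 13.2 and 15.4 with OPG-Fc and 15.1, 13.7 and 23.2 with the combination, against 6.48 and 9.08 with vehicle and 6.16, 8.96 and 5.87 with palbociclib. Combination replicate 3 was the highest, and the mean was 15.6 ± 3.8 in the OPG-Fc tumours against 7.31 ± 1.6 in the others (SD, n = 6 and n = 5). The log2 difference was 1.00 ± 0.17 (SE) over all 11 tumours and 1.12 ± 0.16 without vehicle replicate 2, where it passed (adjusted p = 0.00902).

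Dpep2, a membrane dipeptidase that cleaves leukotriene D4, followed with a gap of 0.38. Its FPKM was 13.9, 9.84 and 11.8 with OPG-Fc, 12.4, 9.43 and 15.4 with the combination, 4.05 and 4.18 with vehicle, and 7.02, 4.91 and 5.33 with palbociclib. Every OPG-Fc tumour lay above every other tumour, and Dpep2 had the smallest p among the higher genes with no overlap (difference 1.13 ± 0.15, adjusted p = 0.149). It passed without vehicle replicate 2, at 1.10 ± 0.16.

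Cd300ld, a myeloid receptor of the CD300 family, was expressed at low levels. It reached 6.46, 2.78 and 2.32 FPKM with OPG-Fc and 3.23, 2.95 and 2.38 with the combination, against 0.93 and 1.62 with vehicle and 1.18, 1.12 and 1.35 with palbociclib. OPG-Fc replicate 1 was far above the other 5 OPG-Fc tumours. The difference was 0.89 ± 0.21, and 0.94 ± 0.22 without vehicle replicate 2 (adjusted p = 0.0407).

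Fpr2, a formyl peptide receptor of neutrophils and macrophages, ranged from 5.37 to 9.96 FPKM (median 6.70) in the OPG-Fc tumours and from 2.43 to 4.23 in the others. Gpx7, a glutathione peroxidase of the endoplasmic reticulum, ranged from 8.86 to 15.8 against 4.10 to 7.34. Rarres2, which encodes the chemoattractant chemerin, ranged from 212 to 329 against 107 to 182. All 3 passed without vehicle replicate 2, at differences of 0.86 ± 0.15, 0.97 ± 0.16 and 0.78 ± 0.17.

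Among the other genes with the widest gaps, Metrnl, a secreted factor related to meteorin, was at 11.8 to 20.1 FPKM against 7.48 to 9.89. Arl11, a GTPase of the ADP-ribosylation factor family, was at 5.14 to 6.95 against 2.57 to 4.25. Tuba1a, an alpha-tubulin, was at 236 to 283 against 144 to 187. Tnfsfm13 was at 1.45 to 2.81 against 0.36 to 0.98, and its value is uncertain because it shares exons with Tnfsf12 and Tnfsf13. These 4 rose in the fit without vehicle replicate 2, by 0.69 ± 0.14, 0.71 ± 0.13, 0.57 ± 0.10 and 1.08 ± 0.17 on the log2 scale.

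Cdr2 and Gchfr complete the higher genes with the smallest p. Cdr2, a cytoplasmic antigen, was at 8.52 to 12.2 FPKM with OPG-Fc and 4.56 to 7.38 without, and Gchfr, the feedback regulator of GTP cyclohydrolase, at 2.47 to 6.60 against 0.67 to 2.24. Their differences were 0.64 ± 0.10 and 1.28 ± 0.22, and both passed without vehicle replicate 2.

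**Figure D1:**
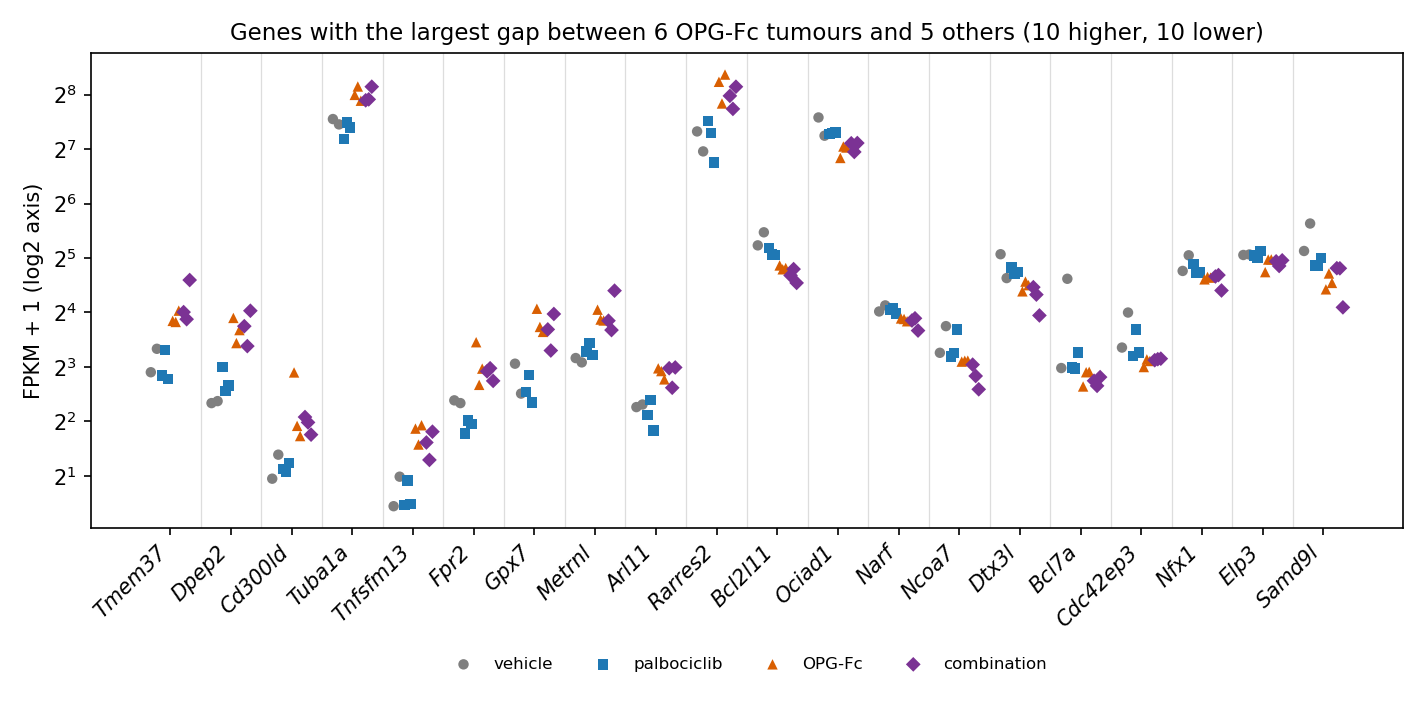
FPKM + 1 on a log2 axis for the 10 higher and 10 lower genes with the largest gap between the 6 OPG-Fc tumours (triangles, OPG-Fc alone; diamonds, combination) and the 5 others (circles, vehicle; squares, palbociclib), 1 point per tumour. In each column the triangles and diamonds lie all above or all below the circles and squares, with a gap of 0.49 for Tmem37 and narrow gaps for most lower genes.

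Over the 83 higher genes, the difference ranged from 0.21 to 1.28 with a median of 0.59, and 30 had a gap of at least 0.1. At the edge of the set, Agpat2 was at 39.7 FPKM or more with OPG-Fc and at 39.6 or less without it, while Aldh7a1, just outside, had a lowest OPG-Fc value 0.01 FPKM below the highest other value. Without vehicle replicate 2, 38 of the 83 higher and 2 of the 18 lower genes passed. Of all genes tested, 3.48% rose and 0.497% fell in that fit. The set was chosen on values of the same tumours, so these counts are no separate support for it. Of the 101, 53 remained apart after quantile normalization, 59 after median-of-ratios scaling and 56 after correction for transcript length and GC content. In every such setting in which they were measured 27 remained apart, 24 higher and 3 lower, and these included Tmem37, Dpep2, Cd300ld, Fpr2, Gpx7, Trem2, Lum, Loxl1 and Bcl2l11.

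Of the other higher genes, 6 are given here that were chosen after their values were seen. The tubulin genes Tubb6, Tuba1c and Tubb2a lay at 92.2 to 150, 179 to 236 and 39.0 to 53.5 FPKM with OPG-Fc, against 22.0 to 84.0, 138 to 176 and 29.2 to 38.6 without it. Tubulin genes are near-identical copies, so how reads were split among them is uncertain. The kinesin gene Kifc1 was at 14.5 to 16.6 against 8.91 to 12.7, the securin gene Pttg1 at 67.8 to 119 against 42.2 to 65.1, and the phosphatase gene Cdc25c, which activates CDK1, at 10.3 to 13.8 against 6.76 to 9.97. Of these 6, Tubb6, Kifc1, Pttg1 and Cdc25c passed without vehicle replicate 2.

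Macrophage genes lay higher in the OPG-Fc tumours. All 18 macrophage markers tested had a difference above 0, with a median of 0.62, or 0.76 without vehicle replicate 2, against 0.03 over all genes in either fit. Without that library 10 of the 18 rose, none fell, and 2 of 18 (Trem2 and Fcgr1) had no overlap in all 11 tumours. The count of 10 was 3 without palbociclib replicate 3 or combination replicate 1, 4 without palbociclib replicate 1 or with the replicate number as a block, and 3 with no filter on low values. The median FPKM of the list was 30.0 to 50.1 in the OPG-Fc tumours and 18.9 to 24.8 in the others apart from vehicle replicate 2, at 42.5, which lay within the range of the OPG-Fc tumours.

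Trem2, a lipid-sensing receptor of macrophages and osteoclasts, was at 38.2, 32.5 and 39.4 FPKM with OPG-Fc and 30.9, 23.7 and 58.2 with the combination. It was at 12.3 and 17.2 with vehicle and 16.7, 21.4 and 11.3 with palbociclib, so the groups did not overlap. The difference was 1.17 ± 0.23, and 1.22 ± 0.24 without vehicle replicate 2 (adjusted p = 0.0256). Fcgr1, the high-affinity receptor for IgG, ranged from 15.6 to 24 against 8.30 to 15.2 and did not pass in either fit (0.65 ± 0.16, and 0.49 ± 0.13 with adjusted p = 0.0552).

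Apoe, which encodes the lipid carrier apolipoprotein E, was at 1689, 1812 and 1780 FPKM with OPG-Fc, 1087, 867 and 1869.6 with the combination, 676, 798 and 617 with palbociclib, and 585 and 1208 with vehicle. Lyz2, the lysozyme of myeloid cells, ranged from 896 to 2799 with OPG-Fc and from 368 to 702 in the others without vehicle replicate 2, which was the highest of all at 3016. Both rose without that library, by 1.06 ± 0.22 and 1.72 ± 0.23. With all 11 tumours they were at 0.92 ± 0.23 and 1.24 ± 0.39 and did not pass.

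Fc and CD300 receptors, through which myeloid cells bind antibody and lipids, showed a similar order of the tumours. The list also holds Pira2, Pirb, Lilrb4a and Lilr4b, which are neither Fc nor CD300 receptors. Of the 19 tested, 11 rose without vehicle replicate 2, none fell, and 3 (Fcgr3, Cd300ld and Fcgr1) had no overlap in all 11. The count of 11 was 4 without palbociclib replicate 3 or with the replicate block, 5 without palbociclib replicate 2 or combination replicate 1, and 6 without OPG-Fc replicate 2 or with libraries sharing a first number averaged. Their median difference was 0.51, and 0.78 without that library. Fcgr3, an activating IgG receptor, was at 124.5, 121 and 126 FPKM with OPG-Fc, 122, 95.7 and 116 with the combination, 69.8 and 91.6 with vehicle, and 55.9, 69.6 and 48.2 with palbociclib. Combination replicate 2 was the lowest of the 6 and vehicle replicate 2 the highest of the 5. The difference was 0.80 ± 0.13, and 0.90 ± 0.12 without vehicle replicate 2 (adjusted p = 0.00579). Fcgr3 has close relatives in sequence, including Fcgr2b, so its share of the reads is uncertain. Lilr4b was at 25.8 to 47.5 against 17.8 to 27.7 and did not pass (0.56 ± 0.15).

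Complement genes had a median difference of 0.18, and 0.58 without vehicle replicate 2, where 5 of 18 rose against 3.48% of all genes tested. That count was 1 without OPG-Fc replicate 3, palbociclib replicate 3 or combination replicate 1 and 2 with the replicate block. The anaphylatoxin receptors C3ar1 and C5ar1, which sense complement fragments, rose by 0.68 ± 0.15 and 0.68 ± 0.14 on the log2 scale, and were at 0.80 ± 0.16 and 0.61 ± 0.14 over all 11 tumours. C3ar1 was at 14.4 to 24 FPKM with OPG-Fc and 7.65 to 15.5 without it, and C5ar1 at 9.06 to 16.8 against 5.27 to 9.41. C1qc, a chain of the first complement component, rose by 0.85 ± 0.20 and was at 0.64 ± 0.24 over all 11.

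Of 29 chemokine genes 3 rose without vehicle replicate 2, against 3.48% of all genes tested. The list median was 0.33 there and 0.34 in all 11. The myeloid chemokine genes Ccl9 and Ccl6 rose by 2.06 ± 0.30 and 1.86 ± 0.36, and were at 1.47 ± 0.49 and 1.34 ± 0.49 over all 11 tumours. Ccl9 was at 79.9, 43.1 and 47.3 FPKM with OPG-Fc and 43.8, 20.2 and 65.0 with the combination, against 10.6, 7.86 and 6.80 with palbociclib and 13.1 in vehicle replicate 1, but 82.3 in vehicle replicate 2. The third, Cxcl12, a stromal chemokine outside the naming rule, rose by 1.69 ± 0.27 and was at 0.94 ± 0.58 over all 11.

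Markers of other myeloid cells had no gene past the threshold in either fit: 0 of 14 for neutrophils, 0 of 8 for mast cells and 0 of 7 for dendritic cells. Of all genes tested, 3.48% rose and 0.497% fell without vehicle replicate 2. Counts of 0 in such short lists therefore do not set them apart from all genes. The neutrophil medians were 0.52, and 0.37 without vehicle replicate 2. Those of mast cells were 0.18 and 0.22, and those of dendritic cells -0.42 and 0.29, which turned with that library.

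**Figure D2:**
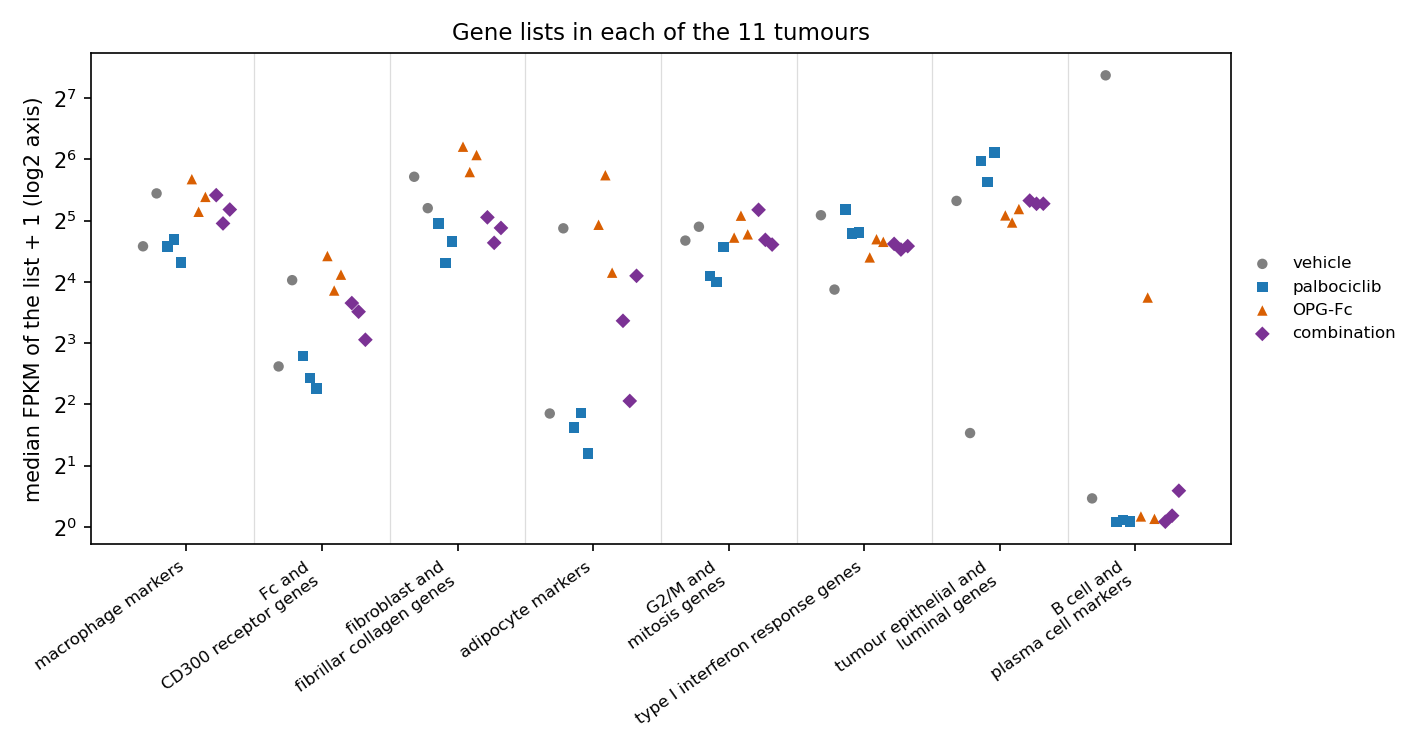
Median FPKM + 1 (log2 axis) of 8 gene lists in each of the 11 tumours, by group. Vehicle replicate 2 shows the lowest epithelial value (1.89) and the highest B cell value (164), and adipocyte markers spread from 3.16 to 52.4 among the 6 OPG-Fc tumours.

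Genes of the fibroblast matrix also lay higher. All 23 fibroblast and fibrillar collagen genes had a difference above 0 in all 11 tumours, with a median of 0.57, and 20 of 23 did without vehicle replicate 2, with a median of 0.31. In the second fit 6 rose and none fell, and Lum and Loxl1 had no overlap in all 11. The count of 6 was 2 without palbociclib replicate 3 or combination replicate 1, and 3 with the replicate block or with no palbociclib factor. The list median was 54.4 to 72.8 FPKM with OPG-Fc alone, but 23.9 to 32.2 with the combination, below both vehicle tumours (51.5 and 35.8). Lum, which encodes lumican, a proteoglycan that spaces collagen fibrils, was at 72.8, 57.2 and 66.2 FPKM with OPG-Fc, 47.3, 47.2 and 37.6 with the combination, 31.5 and 36.2 with vehicle, and 30.0, 32.4 and 27.8 with palbociclib. The tumours given OPG-Fc alone were the highest. The difference was 0.71 ± 0.12, and 0.70 ± 0.13 without vehicle replicate 2 (adjusted p = 0.0187).

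Loxl1, a lysyl oxidase that crosslinks elastin, was at 30.0, 34.6 and 32.8 FPKM with OPG-Fc and 23.8, 18.4 and 26.8 with the combination, against 11.8 to 17.7 in the 5 others. It rose by 0.64 ± 0.13 without vehicle replicate 2. Mfap5, a microfibril protein, rose by 0.98 ± 0.23 there, whereas Col3a1, a fibrillar collagen, was at 0.71 ± 0.19 and did not pass. Col3a1 was at 614 to 983 FPKM with OPG-Fc alone and 197 to 279 with the combination, against 131 to 182 with palbociclib, 347 in vehicle replicate 1 and 241 in vehicle replicate 2.

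The small leucine-rich proteoglycan genes, the family of lumican and decorin, had medians of 0.60 and 0.66. Against 3.48% of all genes tested, 2 of 8 rose without vehicle replicate 2. These were Lum and Dcn, which encodes decorin (1.06 ± 0.19). Bgn, which encodes biglycan, was at 0.45 ± 0.13 in that fit and did not pass.

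Adipocyte markers moved with these groups. Their median FPKM was 16.7 to 52.4 with OPG-Fc, 3.16 to 16.1 with the combination, 1.29 to 2.62 with palbociclib, and 2.61 and 28.3 in vehicle replicates 1 and 2. All 14 lay above 0, with medians of 1.08 and 1.39 in the fits with and without vehicle replicate 2, and 5 rose in the second. That count was 0 with the replicate block and without palbociclib replicate 3 or combination replicate 1, and 1 without OPG-Fc replicate 1, palbociclib replicate 1 or combination replicate 3, and with the robust prior. Fabp4, a fatty acid carrier of fat cells, was at 671, 1141 and 428 FPKM with OPG-Fc, 213, 68.6 and 358 with the combination, 59.0, 63.3 and 44.2 with palbociclib, and 48.0 and 518 with vehicle. The part of fat tissue in the results on macrophage and matrix genes was not tested.

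Endothelial markers had medians of 0.25 and 0.28. Against 3.48% of all genes tested, 2 of 17 rose without vehicle replicate 2. They were Esam, an adhesion molecule of endothelial junctions (0.64 ± 0.14), and Egfl7, a factor secreted by endothelium (0.73 ± 0.18), and were at 0.60 ± 0.13 and 0.60 ± 0.19 over all 11 tumours. Neither call held with no filter, the replicate block or no palbociclib factor, or without OPG-Fc replicate 1 or 3, palbociclib replicate 1 or 3 or combination replicate 3. Skeletal muscle markers had medians of 1.28 and 1.06, with 0 of 15 past the threshold, and their list median ranged from 1.26 to 22.3 FPKM with OPG-Fc and from 0.06 to 15.6 without it.

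Mitosis genes lay higher with OPG-Fc by the fitted differences, although the list medians overlapped, at 23.4 to 35.1 FPKM with OPG-Fc, 24.5 and 28.8 with vehicle and 15.0 to 22.7 with palbociclib. All 32 genes of G2/M and mitosis had a difference above 0 in both fits, with medians of 0.38 and 0.49, and 4 rose without vehicle replicate 2. That count was 1 with no filter, group means, the replicate block, no palbociclib factor or averaged libraries, and 1 when OPG-Fc replicate 2 or 3, any palbociclib tumour, or combination replicate 1 or 3 was left out. Ccnb2, which encodes a mitotic cyclin, was the 1 member with no overlap, at 48.8, 72.0 and 54.0 FPKM with OPG-Fc and 81.5, 56.4 and 69.6 with the combination. It was at 43.6 and 45.6 with vehicle and 33.5, 34.5 and 48.4 with palbociclib, so palbociclib replicate 3 came within 0.01 of OPG-Fc replicate 1 on the log2 scale. The difference was 0.62 ± 0.16, and 0.68 ± 0.17 without vehicle replicate 2 (adjusted p = 0.0486).

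The other 3 that rose without vehicle replicate 2, named after their values were seen, were Cdc20, an activator of the anaphase-promoting complex (0.81 ± 0.13), the cyclin gene Ccnb1 (0.58 ± 0.14) and Cdca8, of the chromosomal passenger complex (0.60 ± 0.14). Over all 11 tumours these were at 0.59 ± 0.20, 0.38 ± 0.19 and 0.38 ± 0.20. Foxm1, a transcription factor of G2/M genes, Cenpa, the centromeric histone, and Prc1, of the spindle midzone, were at 0.57 ± 0.15, 0.64 ± 0.20 and 0.49 ± 0.17 and did not pass. Mki67, the Ki-67 marker of cycling cells, was at 38.1, 40.3 and 34.2 FPKM with OPG-Fc and 36.1, 21.5 and 16.9 with the combination, against 24.6 and 79.7 with vehicle and 16.4, 13.4 and 28.0 with palbociclib. Its groups overlapped, and its difference was 0.08 ± 0.32, or 0.43 ± 0.23 without vehicle replicate 2. The G1/S and replication genes had medians of 0.06 and 0.20, with 0 of 35 past the threshold.

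**Figure D3:**
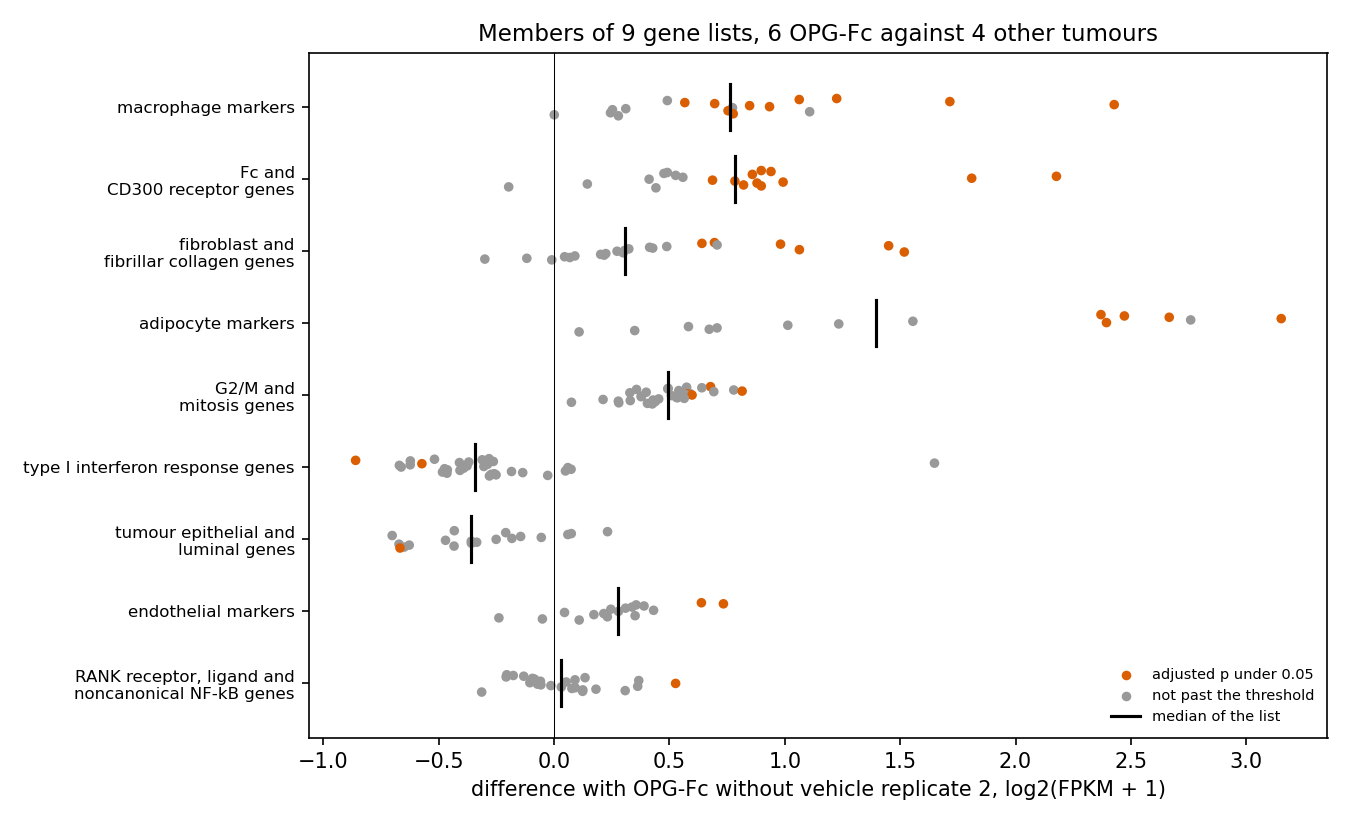
Difference with OPG-Fc on the log2(FPKM + 1) scale without vehicle replicate 2 for each member of 9 gene lists, with the list median as a bar and genes past an adjusted p of 0.05 in orange. The medians are 0.76 for macrophage markers, 0.78 for Fc and CD300 receptors, 0.49 for mitosis genes and -0.34 for interferon response genes.

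Bcl2l11 had the widest gap among the 18 lower genes, at 0.19. It encodes BIM, a BH3-only protein that promotes apoptosis. Its FPKM was 28.1, 26.7 and 27.2 with OPG-Fc and 24.6, 26.8 and 22.3 with the combination, against 36.6 and 43.4 with vehicle and 35.4, 32.4 and 32.2 with palbociclib. The mean was 26 ± 2.1 against 36 ± 4.5 (SD, n = 6 and n = 5). The difference was -0.47 ± 0.09 (adjusted p = 0.15) and -0.42 ± 0.08 without vehicle replicate 2, where it fell (adjusted p = 0.0218).

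Dtx3l, a ubiquitin ligase partner of PARP9, was the other of the 18 that fell without vehicle replicate 2, by 0.54 ± 0.11 on the log2 scale. It was at 19.9, 22.7 and 21.7 FPKM with OPG-Fc and 21.1, 19.1 and 14.4 with the combination, against 23.8 to 32.6 in the others. Samd9l, an interferon-induced gene, was at 16.1 to 27.1 against 27.8 to 48.6, Ncoa7, a nuclear receptor coactivator, at 5.02 to 7.67 against 8.12 to 12.5, and Ociad1 at 113 to 137 against 151 to 190.4. They did not pass in either fit.

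The rest of the lower genes with the widest gaps were Narf, Bcl7a, Cdc42ep3, Nfx1 and Elp3, and Nsun3, a methyltransferase of mitochondrial transfer RNA, was among the 6 with the smallest p. Bcl7a, a subunit of BAF chromatin remodelling complexes, was at 5.24 to 6.52 FPKM with OPG-Fc against 6.84 to 8.60 in 4 others and 23.6 in vehicle replicate 2. Its difference was -0.62 ± 0.26, and -0.28 ± 0.11 without that library. Elp3, the catalytic subunit of Elongator, had a narrow spread, at 25.7 to 30.4 against 31.3 to 34.1. These 6 genes did not pass in either fit. Over the 18 lower genes the differences ran from -0.71 to -0.16, with a median of -0.36.

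Interferon response genes lay lower, with medians of -0.21 and -0.34 for 32 members. In all 11 tumours 21 of 32 lay below 0, and without vehicle replicate 2, 28 of 32 did, 2 fell and none rose. Of all genes tested, 0.497% fell there. The count of 2 was 0 with no filter or the replicate block, and without palbociclib replicate 1 or 3 or combination replicate 1. The list median was 20.1 to 24.9 FPKM with OPG-Fc and 26.6 to 35.3 in 4 others, while vehicle replicate 2, at 13.7, lay below every OPG-Fc tumour. Oas3, a sensor of double-stranded RNA, was at 4.09, 6.93 and 5.73 FPKM with OPG-Fc and 6.17, 6.95 and 4.20 with the combination. It was at 13.6, 8.98 and 10.2 with palbociclib and 11.4 in vehicle replicate 1, but 4.40 in vehicle replicate 2. It fell by 0.86 ± 0.17 on the log2 scale without that library (adjusted p = 0.0256), as did Herc6, a ubiquitin ligase outside the naming rule, by 0.57 ± 0.13. Over all 11 tumours these were at -0.61 ± 0.24 and -0.34 ± 0.21. Ifit2, an interferon-induced inhibitor of translation, was at -0.52 ± 0.13, Trim30a at -0.28 ± 0.11 and the RNA sensor gene Ddx58 at -0.31 ± 0.15, and they did not pass.

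The genes of the drug's own pathway did not separate the groups. Tnfrsf11a, which encodes RANK, was at 2.22, 1.49 and 1.47 FPKM with OPG-Fc, 1.71, 1.22 and 1.36 with the combination, 0.89 and 2.31 with vehicle, and 0.91, 1.08 and 0.95 with palbociclib. All 6 OPG-Fc values lay above the 4 others other than vehicle replicate 2, which was the highest of the 11. The difference was 0.21 ± 0.16, and 0.37 ± 0.13 without that library (adjusted p = 0.135). Tnfsf11, which encodes RANKL, was at 0.36 to 2.07 against 0.52 to 3.30, with a difference of -0.09 ± 0.29. Tnfrsf11b, which encodes OPG itself, was at 1.45 to 4.54 against 0.67 to 5.93, with a difference of -0.02 ± 0.30. The directions of Tnfsf11 and Tnfrsf11b changed with the processing or the library left out.

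Of the 25 RANK and NF-kB genes, 0 had no overlap, against 0.773% of all genes tested. Near the 3.48% of all genes that rose without vehicle replicate 2, 1 of the 25 rose. This was Relb, a subunit of noncanonical NF-kB that the naming rule does not cover, at 0.53 ± 0.11 (adjusted p = 0.0312), and 0.23 ± 0.23 over all 11. It was at 15.2, 17.3 and 15.0 FPKM with OPG-Fc and 18.0, 19.9 and 20.6 with the combination, against 13.5, 15.4 and 10.5 with palbociclib and 11.1 and 29.0 with vehicle. The list medians were -0.09 and 0.03, near those of all genes. Traf6, the main adaptor of RANK, was at -0.36 ± 0.15, and -0.21 ± 0.12 without vehicle replicate 2. Ikbkg, a subunit of the IKK complex, was at -0.25 ± 0.13, Birc2, a ubiquitin ligase of TRAF complexes, at -0.35 ± 0.18 and Tab2, an adaptor of the kinase TAK1, at -0.20 ± 0.11, and they did not pass.

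Of 16 osteoclast-type genes tested, 3 rose without vehicle replicate 2, against 3.48% of all genes tested. These 3 are also genes of macrophages: Trem2, its adaptor gene Tyrobp (0.90 ± 0.19) and the receptor gene Csf1r (0.75 ± 0.13). That count was 0 with the replicate block, and 0 to 3 with a second tumour left out. Ctsk, the collagen-degrading protease cathepsin K, was at 0.38 ± 0.13 and did not pass. Over all 11 tumours Tyrobp was at 0.62 ± 0.27, Csf1r at 0.46 ± 0.24 and Ctsk at 0.65 ± 0.22. The list medians were 0.12 and 0.04. The 10 mammary hormone-response and milk genes tested had medians of -0.15 and -0.17. Against 0.497% of all genes tested, 1 of these 10 fell without vehicle replicate 2. It was Gata3, a transcription factor of luminal cells that the naming rule does not cover (-0.45 ± 0.11, and 0.01 ± 0.34 over all 11).

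The targets of palbociclib and their partners did not pass in either fit. Ccnd1, which encodes cyclin D1, was at 269, 226 and 297 FPKM with OPG-Fc and 282, 264 and 175 with the combination, against 276, 276 and 309 with palbociclib, 333 in vehicle replicate 1 and 13.1 in vehicle replicate 2. Its difference was 0.70 ± 0.71 over all 11 tumours and -0.30 ± 0.14 without vehicle replicate 2, so that library set its direction. Cdk4 was at 0.32 ± 0.18 and 0.17 ± 0.16, Cdk6 at -0.21 ± 0.22 and -0.44 ± 0.17, and Rb1 at -0.27 ± 0.29 and 0.07 ± 0.18. Of the 19 genes of this machinery, 1 rose without vehicle replicate 2, against 3.48% of all genes tested. It was the cyclin gene Ccne1, named after its values were seen (0.48 ± 0.11, and 0.05 ± 0.31 over all 11).

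Among the genes that rose without vehicle replicate 2, 382 of 455 had a vehicle replicate 2 value above the lowest OPG-Fc value, and for 314 it was above the OPG-Fc median. Of the 65 that fell, 56 had a vehicle replicate 2 value below the highest OPG-Fc value. In all, 40 genes both passed and had no overlap in the 11 tumours, which were 7.69% of the passing genes and 39.6% of those with no overlap. Both calls use values of the same tumours, so neither is separate support for the other.

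Ms4a8a, Alox5ap and Renbp were among the genes that rose with the smallest p (adjusted p = 0.00463 for each). Alox5ap encodes the 5-lipoxygenase activating protein of leukotriene synthesis, and was at 85.8, 72.2 and 75.0 FPKM with OPG-Fc and 87.4, 66.6 and 115 with the combination. It was at 32.1, 29.6 and 26.9 with palbociclib and 35.2 in vehicle replicate 1, but 85.6 in vehicle replicate 2. The difference was 1.40 ± 0.15 without that library and 1.07 ± 0.27 with it. Ms4a8a, a membrane protein of the MS4A family, was at 2.14 ± 0.23, and Renbp, an epimerase of amino sugars, at 0.87 ± 0.10, against 1.49 ± 0.50 and 0.63 ± 0.19 over all 11 tumours.

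The largest rises were those of Retnla (4.58 ± 1.12), Retn (3.15 ± 0.69), Cyp2e1 (2.90 ± 0.68), Wfdc17 (2.71 ± 0.35), Car3 (2.67 ± 0.50), Folr2 (2.59 ± 0.33), Cidec (2.47 ± 0.54) and Cd163 (2.43 ± 0.50). Over all 11 tumours these 8 ran from 1.80 (Cd163) to 2.96 (Retnla), with none past the threshold. Retn, Car3 and Cidec are adipocyte markers, Cd163 is a haemoglobin scavenger receptor of macrophages, and Folr2 a folate receptor of tissue macrophages. Folr2 was at 69.9, 59.2 and 58.5 FPKM with OPG-Fc and 67.3, 24.9 and 93.6 with the combination, against 13.1, 6.76 and 5.75 with palbociclib, 9.75 in vehicle replicate 1 and 70.2 in vehicle replicate 2. Retnla, which encodes a resistin-like protein, ranged from 1.21 to 1394 among the 6 OPG-Fc tumours, and the largest value of all was 1853 in vehicle replicate 2.

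The smallest p among those that fell belonged to Nuak1, a kinase related to AMPK (-0.71 ± 0.08), Dmd, which encodes dystrophin (-0.70 ± 0.11), the transcription factor gene Ets2 (-0.48 ± 0.08) and P4ha1, a prolyl hydroxylase of collagen (-0.51 ± 0.09). Nuak1 was at 35.2, 39.0 and 37.7 FPKM with OPG-Fc and 25.1, 26.9 and 26.4 with the combination, against 48.0, 46.7 and 40.9 with palbociclib, 57.0 in vehicle replicate 1 and 3.33 in vehicle replicate 2. With all 11 tumours these 4 were at 0.14 ± 0.59, -0.11 ± 0.42, -0.03 ± 0.32 and 0.00 ± 0.36, so their fall is seen without vehicle replicate 2 only.

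The largest falls were those of Pof1b (-1.21 ± 0.29), Rnf128 (-1.11 ± 0.27), Sbk3 (-0.89 ± 0.18), Myh14 (-0.88 ± 0.19), Oas3, Galnt15 (-0.86 ± 0.18), Kitl, the ligand of KIT (-0.85 ± 0.16), and Cwh43 (-0.83 ± 0.20). Over all 11 tumours these 8 were smaller in size, from -0.61 (Oas3) to 0.13 (Cwh43), with SEs of 0.24 to 0.69. Of 26 hypoxia and glycolysis genes 3 fell without vehicle replicate 2, against 0.497% of all genes tested. The list median was -0.23 there and 0.13 over all 11 tumours. The count of 3 was 0 with the replicate block and 1 without palbociclib replicate 3. The 3 genes were P4ha1 and, outside the naming rule, the kinase gene Pdk1 (-0.56 ± 0.11) and Ndrg1 (-0.74 ± 0.14). The last 2 were at -0.22 ± 0.26 and 0.10 ± 0.60 over all 11. The epithelial and luminal genes had a median of 0.50 in all 11 tumours and -0.36 without vehicle replicate 2, so their direction turned with that library. Ocln, which encodes occludin of tight junctions and lies outside the naming rule, was the 1 of 19 that fell (-0.67 ± 0.15, and 0.05 ± 0.52 over all 11). Of all genes tested, 0.497% fell.

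The OPG-Fc difference could be read without palbociclib (OPG-Fc minus vehicle) and with it (combination minus palbociclib), in tumours that the 2 arms do not share. Neither arm had a gene past the threshold, with 1328 genes (10.2%) and 883 genes (6.75%) at an unadjusted p under 0.05. The interaction, which tests whether the arms differ, had 0 of 13074 genes past the threshold in limma (0%), and 709 genes (5.42%) at an unadjusted p under 0.05. Without vehicle replicate 2 these counts were 0 (0%) and 633 (4.84%).

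For the 83 higher genes with no overlap, the median difference was 0.65 without palbociclib and 0.50 with it, and 51 were larger without it. Over all genes tested, 8016 of 13074 were larger in size without palbociclib. For macrophage markers the medians were 0.58 without and 0.70 with palbociclib, for Fc and CD300 receptors 0.31 and 0.75, and for mitosis genes 0.12 and 0.56. For the fibroblast list they were 1.08 and 0.32, for adipocyte markers 1.55 and 0.68, and for all genes 0.04 and 0.02. The arm without palbociclib includes vehicle replicate 2, and the differences between arms for these lists were not tested.

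**Figure D4:**
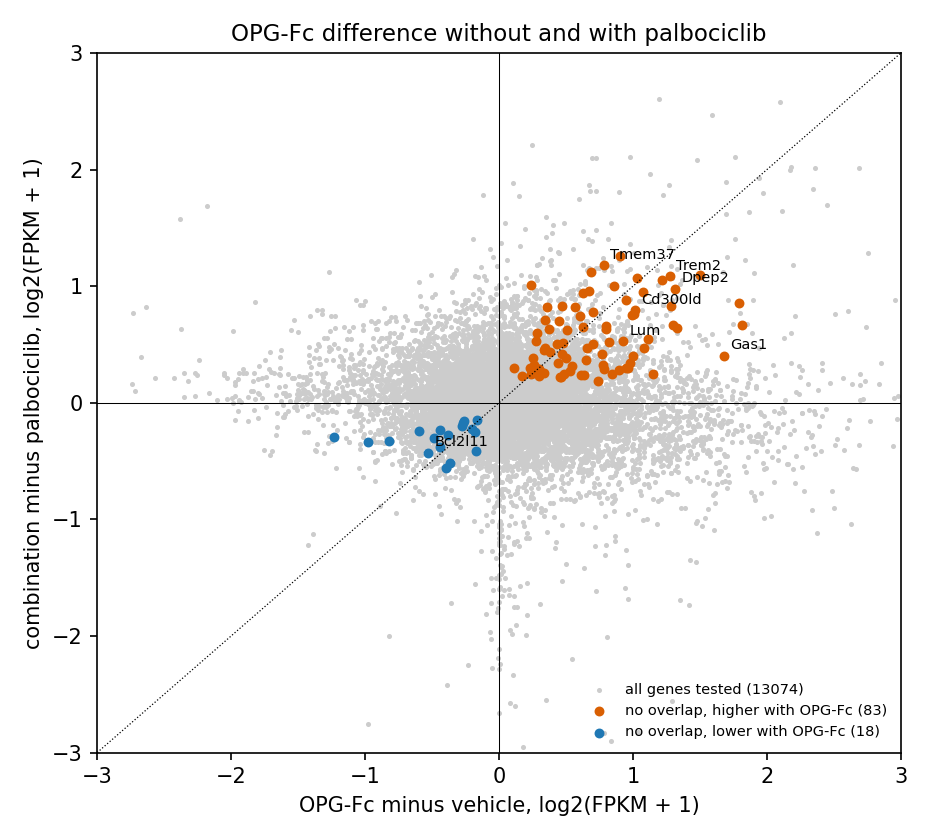
Difference with OPG-Fc on the log2(FPKM + 1) scale without palbociclib (horizontal) and with it (vertical), for the 13074 genes tested (grey) and the genes with no overlap, 83 higher (orange) and 18 lower (blue), with the line of equality dotted. By the way they were chosen, the coloured points must lie on the same side of 0 on both axes. In all, 23 genes lie beyond the plotted range of 3 in either direction.

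The genes with the smallest interaction p were Praf2, Gm6750 and Ppp1ccb, with a more positive OPG-Fc difference under palbociclib, and Cracr2b, 1190005I06Rik and Avpi1, with a more negative one (adjusted p = 0.647 for each). Avpi1 was at 12.1 and 6.71 FPKM with vehicle, 19.2, 21.5 and 26.9 with OPG-Fc, 36.0, 41.6 and 42.8 with palbociclib, and 34.5, 34.3 and 40.5 with the combination. Praf2, a membrane protein of the prenylated Rab acceptor family, was at 32.1 and 37.5 with vehicle, 28.9, 26.5 and 27.9 with OPG-Fc, 18.2, 20.6 and 16.7 with palbociclib, and 28.4, 29.2 and 34.7 with the combination. For Cracr2b, which is known from calcium entry, both vehicle tumours were low, at 2.67 and 2.53, against 6.43 to 10.3 in the 9 others.

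The palbociclib factor of the same fit was read for the genes with no overlap. Of the 83 higher genes, 36 lay lower with palbociclib in all 11 tumours and 44 without vehicle replicate 2, and 0 and 1 passed for palbociclib. The 1 was Pdia5, a protein disulfide isomerase named after its values were seen, which fell by 0.34 on the log2 scale (adjusted p = 0.0432). Of the 18 lower genes, 15 and 14 lay lower with palbociclib, and 0 passed. In the same order, 7083 and 7433 of all 13074 genes tested lay lower with palbociclib, and 610 and 1640 passed.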

How the data were processed

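Poly(A) RNA of 11 tumours was sequenced, and the authors deposited FPKM values per gene symbol and library. HISAT, Bowtie2 and RSEM and the builds GRCm39 and mm39 are named in the submitters' processing notes, with no versions or roles. No whole reads could be recovered from the values, so the depth is unknown; summed FPKM per library ranged from 576699 to 864670.

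Values were taken as log2(FPKM + 1), a scale that understates changes of low genes. Genes of at least 1 FPKM in at least 2 libraries were fitted with limma 3.58.1 (variance prior with trend) in R 4.3.3, with OPG-Fc and palbociclib as additive factors, and p-values were adjusted by Benjamini-Hochberg over all 13074 genes. Group means gave the arms and the interaction. The second fit left out vehicle replicate 2 and used the same genes. Errors of differences are standard errors. The fit was tested on simulated data.

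The genes compared, the 37 gene lists, the tests and the rule for named genes were chosen with earlier results of these data known. The rule takes the 10 genes with the largest gap and the 6 with the smallest p in each direction among those with no overlap, the 4 smallest p and 8 largest passing differences in each direction without vehicle replicate 2, 8 target genes, up to 4 members of each list described with the smallest p, and 3 in each direction for the interaction. Some genes that this rule takes are not reported here. Promoters came from RefSeq (GRCm38.p6), with only the first listed start of a gene used. Alternatives varied the pseudocount, filter, scaling, model, weights, replicate block and libraries. Corrections for transcript length and GC content, leaving out both palbociclib libraries with skin transcripts, and, without vehicle replicate 2, the fits without the palbociclib factor, with the robust prior and with averaged libraries were chosen after seeing the data. Figures were drawn with matplotlib in Python.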

Additional observations from a re-analysis of the deposited data

Results flagged for a closer look

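Named genes were searched for single tumours far from the rest of their group (the gap to the nearest tumour as a share of the group's range), among the 6 OPG-Fc and among the 5 other tumours. Of 184 groups of values 36 had such a tumour, where chance alone flags about 1 in 20 groups. Vehicle replicate 2 was the tumour in 24 of them, but many of the genes were named because they passed without that library, so the chance rate does not apply to it.

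In vehicle replicate 2, high values were those of Alox5ap (85.6 FPKM), Ms4a8a (18.4), Renbp (19.1) and Ccl9 (82.3), of the RANK gene Tnfrsf11a (2.31), and of Retnla (1853), Retn (104), Car3 (270.1), Cidec (34.4), Cyp2e1 (37.5), Fabp4 (518), Dcn (195), Bcl7a (23.6) and Birc2 (45.5). Low values there were those of Ccnd1 (13.1), Dmd (1.11), Ets2 (17.2), Galnt15 (1.42), Kitl (4.84), Nuak1 (3.33), P4ha1 (14.5), Rnf128 (0.50), Lilr4b (17.8) and Cwh43, which is listed at 0. Ociad1 was high in vehicle replicate 1 (190.4).

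Among the OPG-Fc tumours, combination replicate 3 was high for Tmem37 (23.2) and low for Ifit2 (5.40), Ikbkg (4.41), Narf (11.7), Nfx1 (20.2), Rb1 (2.76) and Traf6 (5.29). Combination replicate 2 was low for Fcgr3 (95.7) and Folr2 (24.9). OPG-Fc replicate 1 was high for Cd300ld (6.46) and low for Cdc42ep3 (6.99).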

How the results depend on the processing

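With all 11 tumours, 0 genes passed under every setting tried except array weights (822), without vehicle replicate 2 (520) and without combination replicate 2 (4), so that leaving out a tumour gave 0 to 520. Non-overlapping higher genes were 53 after quantile normalization, 55 after median-of-ratios scaling, 136 with libraries sharing a first number averaged, 150 without the palbociclib libraries with skin transcripts, and 94 to 582 with a tumour left out (582 without vehicle replicate 2). The lower ones were 74, 42, 42 and 51 in the same order, and 20 to 142. Without vehicle replicate 2, 3.48% of the genes tested rose. The share was 1.32% with no filter, 6.37% with array weights, 1.56% with no palbociclib factor, 0% without the libraries with skin transcripts, and 0% (without vehicle replicate 1) to 4.26% with a second tumour left out. It was 2.32% and 2.02% without OPG-Fc replicates 1 and 3, 1.48% and 0.841% without palbociclib replicates 1 and 3, and 0.987% and 2.25% without combination replicates 1 and 3. The share that fell, 0.497%, was 0.146% with no filter, 0.948% after quantile normalization, 0.918% after median-of-ratios scaling, 0.291% with group means, 1.99% with array weights, 1.02% after length and GC correction, 0.0765% with no palbociclib factor, 0.176% with averaged libraries, 0% without the libraries with skin transcripts, and 0% to 0.551% with a second tumour left out. Non-overlapping genes in that set were 915 higher and 248 lower with averaged libraries, 994 and 317 without the libraries with skin transcripts, 321 and 270 lower after quantile and median-of-ratios scaling, and 602 to 962 and 175 to 420 with a tumour left out. The interaction count ran from 0 to 4800 (without vehicle replicate 1, which leaves vehicle replicate 2 as the vehicle group), with 61 without palbociclib replicate 2. The median of Fc and CD300 receptors was 0.46 to 0.78 with a tumour left out of 11, and without vehicle replicate 2 it was 0.62 with no filter and 0.89 with no palbociclib factor, where that of the fibroblast list was 0.63. The medians of macrophage markers and mitosis genes moved, under each setting, by no more than the residual SD of the tumours' list medians around the additive fit. Over all 11 tumours that SD includes vehicle replicate 2, which makes it a lenient limit. Without vehicle replicate 2, endothelial markers were at 0.47 with no palbociclib factor and 0.088 without vehicle replicate 1, adipocyte markers at 2.37 with a filter of 5 FPKM and epithelial genes at -0.23 without the libraries with skin transcripts. With the replicate number as a block, 0.971% of the genes rose and 0.0459% fell without vehicle replicate 2, and 0 passed in all 11. Deviations of same-numbered tumours from their group means had an r of -0.41 to 0.53 over 15 pairs, 5 above 0.1. Over 30 pairs with other numbers, r was -0.53 to 0.43. In groups of 2 or 3 the deviations are tied to each other, so this check cannot tell whether the number pairs tumours. Signs turned for target genes that did not pass. Ccnd1 was at -0.086 with array weights and -0.30 (without vehicle replicate 2) to 1.22 with a tumour left out. Cdk6 was at 0.060 without the libraries with skin transcripts. Mki67 was at -0.13 to 0.43 with a tumour left out. Rb1 was at 0.081 with array weights and -0.45 to 0.071 with a tumour left out, and in the fit without vehicle replicate 2 at -0.072 after length correction and -0.012 to 0.22 with a second tumour left out. Tnfsf11 was at 0.28 with array weights, 0.0067 after length and GC correction and -0.32 to 0.18 with a tumour left out. Tnfrsf11b was at 0.045 with a pseudocount of 0.1, 0.032 with group means, 0.013 with the replicate block, 0.042 after length correction, 0.13 after length and GC correction, 0.31 without the libraries with skin transcripts, and -0.31 to 0.19 with a tumour left out. Of the 72 and 92 genes tracked in the fits with and without vehicle replicate 2, 66 and 91 never changed sign. The causes were not tested. Read depth is unknown, so counting error cannot be given.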
